A study of Mus musculus with 31 samples.

Results

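Ribosomes are assembled in the nucleolus, where RNA polymerase I transcribes the long ribosomal RNA precursor and a large set of proteins cuts, modifies and folds it into the small and large subunits. Small nucleolar ribonucleoproteins of the C/D box class methylate the precursor, those of the H/ACA box class convert uridines to pseudouridines, and separate sets of processing factors mature each subunit before export. Haematopoietic stem cells are known for a low rate of protein synthesis, and MYC proteins are known activators of many genes of this pathway. The genes described here are 37 ribosome biogenesis genes, chosen by symbol from a table of 55492 rows. They are 2 subunits of RNA polymerase I (Polr1a, Polr1b), 3 C/D box proteins (Fbl, Nop56, Nop58), 4 H/ACA box proteins (Dkc1, Gar1, Nhp2, Nop10), 5 abundant or regulatory nucleolar proteins (Ncl, Npm1, Nolc1, Mybbp1a, Gnl3), 13 small subunit factors (Nop14, Rrp9, Rrp12, Utp15, Utp20, Wdr43, Wdr75, Heatr1, Nob1, Pno1, Tsr1, Ltv1, Bms1), 8 large subunit factors (Nop2, Nop16, Bop1, Pes1, Wdr12, Rrp1b, Ddx18, Ebna1bp2) and 2 other RNA helicases (Ddx21, Ddx10). All 37 were found and all 37 were among the 22172 rows with enough reads to be tested, with a lowest count of 57 reads (Nop10).

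RNA was measured in the long-term class of haematopoietic stem cells (LT-HSCs), which were sorted from mouse marrow as lineage-negative, Sca1+, cKit+, CD48- and CD150+ cells. The donors of the marrow were VFDM mice (SclCre;FF1;Dnmt3 delta/delta;GFP), which carry a transgene of JAK2-V617F (an activated kinase of myeloproliferative neoplasms) and lack Dnmt3a (a DNA methyltransferase), or VF mice (SclCre;FF1;GFP), which carry the transgene with Dnmt3a intact. In both, Cre is driven by Scl, a gene active in blood stem and progenitor cells, so every group shares the transgene, Cre and GFP. Donor marrow was transplanted into wild-type mice together with a 10-fold excess of wild-type marrow, and the labels do not state whether GFP was part of the gate. From 4 weeks after transplantation and for 8 weeks, recipients of either genotype received both drugs (COMBO), 5-azacytidine alone (AZA, an inhibitor of DNA methylation, 2 mg/kg into the peritoneum daily), pegylated interferon alpha alone (IFN, 25 ug/kg under the skin weekly) or vehicle. There were 3 VFDM COMBO libraries (numbered 2, 3 and 4) and 4 libraries in each of the other 7 groups, 31 in all, with 17782394 to 73910928 counted reads each. The labels do not say that each library came from a separate animal, so each p-value speaks only of the spread among the libraries at hand.

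Several libraries stood apart from their groups or went against their labels. The deleted gene, Dnmt3a, was lower in VFDM than in VF averaged over the 4 treatments (log2 fold change -1.08, SE 0.11, adjusted p = 1.03e-07, edgeR), but VFDM IFN library 3 had 162 CPM (counts scaled to library size with TMM factors), against 102 to 111 CPM in the other 3 VFDM IFN libraries, so it is called the library labelled VFDM IFN 3. VF COMBO library 3 had 104 CPM of Dnmt3a, within the range of VFDM libraries, against 140 to 193 CPM in the other 3 VF COMBO libraries. In VF vehicle, libraries 1 and 4 differed from libraries 2 and 3: mitochondrial transcripts took 1.82% and 0.859% of reads in 1 and 4, and 9.54% and 11.8% in 2 and 3. Small and ribosomal RNA took 22.3%, 24.9%, 8.49% and 37.5% of reads in VF vehicle libraries 1 to 4, so library 2 also stood apart, against 5.02% to 10.5% in all libraries of the other 7 groups. Every comparison with VF vehicle rests on these libraries, and the part of these differences in the results was not tested. Libraries 1 and 4 were both above libraries 2 and 3 for 13 of the 37 genes and both below them for another 13, which is 35.1% each, against 22.6% and 29.5% of all rows tested. VF IFN library 1 was the lowest of its group for 28 of the 37 genes. In VFDM COMBO the sorted cells carried the CD150 gene Slamf1 at 87.6 to 95.4 CPM, against 59.3 to 93.3 CPM in VFDM vehicle, but Procr, another marker of LT-HSCs, was at 0.0315 to 0.439 CPM in VFDM COMBO, against 34.0 to 40.4 CPM in VFDM vehicle. In bulk RNA, fewer cells of a type and less RNA per cell cannot be told apart.

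Per kilobase of annotated exon, the set spanned a wide range of levels. The length was that of all annotated exons of a gene merged, which can exceed that of its main transcript. Ranks by this measure therefore depend on the annotation. Ncl (nucleolin), which binds the ribosomal RNA precursor, averaged 176 CPM per kb and held 31.25% of all reads of the 37 genes. Npm1 (nucleophosmin), a chaperone of ribosome assembly, averaged 148 CPM per kb, and Ddx21, a helicase that acts on the polymerase I and small nucleolar RNA machinery, 67.5 CPM per kb. At the low end by this measure Utp15, which belongs to the early small subunit complex that loads during transcription, averaged 7.40 CPM per kb. Wdr12, a member of the PeBoW complex of large subunit maturation, averaged 8.18 CPM per kb. Its merged exons were the longest of the 37 genes (11.96 kb), and before this scaling it averaged 97.8 CPM. The genes lie on 17 chromosomes, and 7 of them (Nop56, Nop58, Dkc1, Ncl, Gnl3, Wdr43, Tsr1) hold 21 annotated small nucleolar RNAs within their span on the same strand. Whether these overlap annotated exons of the host gene was not examined. For 10 genes at least 50 exonic bases overlap a gene on the other strand, the longest overlap being 1240 bases between Tsr1 and Srr. Whether reads were counted by strand is not given in the sources used here. Reads of such a pair can therefore not be told apart.

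RefSeq promoter windows (GRCm38.p6, 250 bases before to 50 after the start) were found for 33 of the 37 genes, the exceptions being Bop1, Rrp12, Fbl and Npm1. The E-box CACGTG, a sequence that MYC and related proteins are known to bind and that reads the same on both strands, was present in 8 of the 33 windows (24.2%), against 11.2% of the 11793 tested genes with a window. CCGGAAG, searched on both strands as a motif of ETS-type proteins, was in 10 of the 33 (30.3%) against 18.4%, and CCAAT in 14 of the 33 (42.4%) against 42.6%. No match of one motif can overlap a match of another, and a match describes only the letters of the window. The windows below are shown because their genes carry the changes described next, with the E-box in capitals (and CCGGAAG also in capitals for Nop2). Nop2 is shown for 120 bases ending just before its start, at chr6:125131763-125131882 on the plus strand, and the others for 30 bases on the strand of the gene.

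Nop2: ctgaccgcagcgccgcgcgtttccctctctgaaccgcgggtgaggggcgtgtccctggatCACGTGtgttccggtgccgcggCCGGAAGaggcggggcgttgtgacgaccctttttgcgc
Pno1 (chr11:17211540-17211569, minus strand): tgcgctgtacaaccacgCACGTGttcctct
Utp20 (chr10:88826765-88826794, minus strand): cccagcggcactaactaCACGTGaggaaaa
Mybbp1a (chr11:72441347-72441376, plus strand): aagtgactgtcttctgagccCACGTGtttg
Tsr1 (chr11:74898092-74898121, plus strand): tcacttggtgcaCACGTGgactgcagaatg
Wdr43 (chr17:71616220-71616249, plus strand): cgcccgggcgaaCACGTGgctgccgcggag

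In Nop2 the E-box began 60 bases before the start. In the other 5 it began 17 to 40 bases after the start. Among the 15 genes with a window that rose with both drugs in VFDM cells, 5 held an E-box and 5 held CCGGAAG. Of all 33 windows 8 held an E-box and 10 held CCGGAAG, against 11.2% and 18.4% of the tested genes with a window. Ltv1 and Pes1, not printed here, also held an E-box and were not called in that comparison. A link between the motifs and the changes was not tested.

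In VFDM LT-HSCs, treatment with both drugs was accompanied by higher levels of much of the set. The 37 genes summed to 6796, 6255 and 8036 CPM in the VFDM COMBO libraries, and to 4359 to 5330 CPM, with a median of 4751 CPM, in VFDM vehicle, so the groups did not overlap. Of the 37 genes, 16 rose and none fell (edgeR quasi-likelihood test, Benjamini-Hochberg adjusted p under 0.05 over all 22172 rows), where 5.52% of all rows rose and 10.5% fell. Among the 7944 rows with a mean level in the range of the 37 genes (20.2 to 1790 CPM), 10.1% rose. The median log2 fold change was 0.51 over the 37 genes, 0.05 over those 7944 rows and -0.08 over all rows. All 37 estimates were above 0, against 54.3% of those 7944 rows and 45.9% of all rows. For 22 genes each COMBO library was above each vehicle library, as for 13.3% of all rows. Leaving out VFDM COMBO library 4, the highest of its group for 21 genes, left 10 rises, and leaving out any other single library of the comparison left up to 18.

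**Figure D1:**
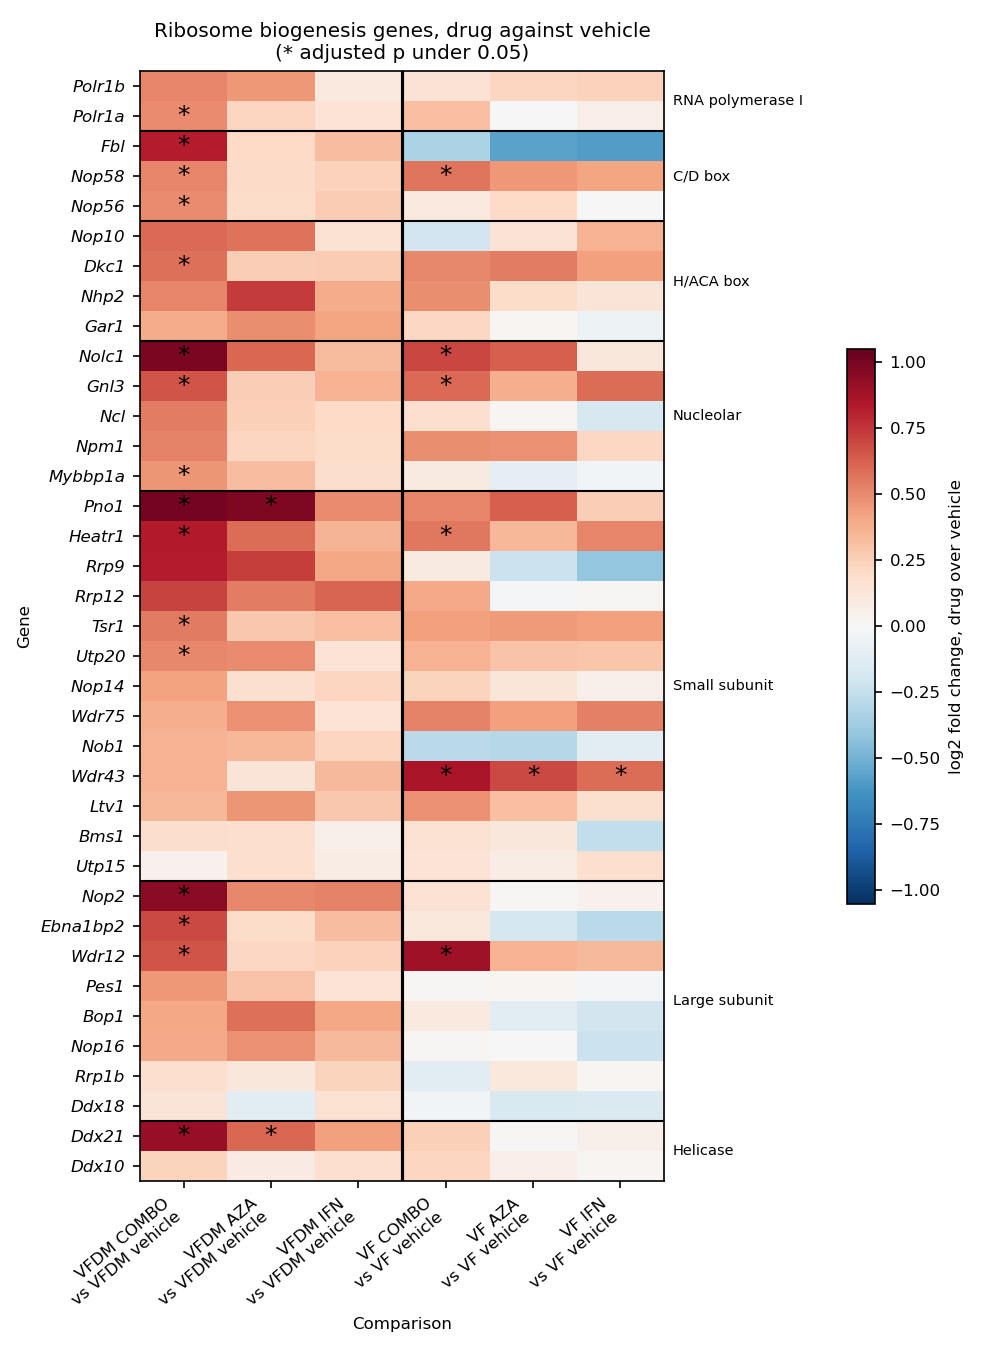
Log2 fold change of each of the 37 genes (rows, grouped by role) in each drug group against the vehicle group of the same genotype (columns, VFDM left and VF right), with red for higher and blue for lower than vehicle and a star at an adjusted p under 0.05 (edgeR). The VFDM COMBO column is red throughout with 16 stars, and the VF columns hold both colours, with 6, 1 and 1 stars.

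Of the polymerase I subunits, Polr1a, the largest subunit of the enzyme, had 163, 204 and 156 CPM in VFDM COMBO, against 122, 129.6, 123 and 120.4 CPM in VFDM vehicle. The groups did not overlap and the gene rose (log2 fold change 0.49, SE 0.11, adjusted p = 0.00239, edgeR). Polr1b, the other large subunit of the catalytic core, had 91.4, 78.5 and 76.2 CPM in VFDM COMBO, against 58.3, 52.6, 60.7 and 58.2 CPM in VFDM vehicle. These groups did not overlap either, with a log2 fold change of 0.51 (SE 0.23), but the adjusted p was 0.117.

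All 3 C/D box proteins rose. Fbl (fibrillarin), the methyltransferase of these particles, had 76.3, 47.0 and 59.3 CPM in VFDM COMBO, against 36.0, 34.0, 31.6 and 36.1 CPM in VFDM vehicle (log2 fold change 0.82, SE 0.22, adjusted p = 0.00923, edgeR). Its groups did not overlap, and without VFDM COMBO library 2, its highest, the adjusted p was 0.0717. Nop58, a core protein of the same particles, had 253, 262 and 302 CPM in VFDM COMBO, against 164, 192, 193 and 217 CPM in VFDM vehicle (0.51, SE 0.17, adjusted p = 0.0364, edgeR). Its partner Nop56 had 229.8, 139 and 232 CPM in VFDM COMBO, against 126, 149, 133 and 159 CPM in VFDM vehicle (0.50, SE 0.16, adjusted p = 0.0264, edgeR). For Nop56 library 3 lay inside the vehicle range, so the groups overlapped. The call of Nop56 was lost without VFDM vehicle library 1 or VFDM COMBO library 2 or 4, and that of Nop58 without VFDM vehicle library 1 or VFDM COMBO library 3 or 4.

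Of the H/ACA box proteins, Dkc1 (dyskerin), the pseudouridine synthase, had 143, 195 and 194 CPM in VFDM COMBO, against 104, 116, 123 and 132 CPM in VFDM vehicle. It rose (0.58, SE 0.19, adjusted p = 0.0346, edgeR), a call lost without VFDM vehicle library 1 or 2 or VFDM COMBO library 3 or 4, with adjusted p up to 0.115. Its 3 partners had estimates of 0.39 (Gar1), 0.51 (Nhp2) and 0.59 (Nop10) with SEs of 0.27, 0.27 and 0.46, and none passed the test. Gar1 and Nhp2 levels overlapped between the groups.

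Among the nucleolar proteins Nolc1, a chaperone of small nucleolar ribonucleoproteins, had 249, 229.6 and 291 CPM in VFDM COMBO, against 118, 129, 121 and 149 CPM in VFDM vehicle. Every COMBO library was above every vehicle library, and the log2 fold change was 0.99 (SE 0.23, adjusted p = 0.00276, edgeR). Gnl3 (nucleostemin), a GTP-binding nucleolar protein of stem and dividing cells, had 181, 158 and 224 CPM in VFDM COMBO, against 109, 122, 116 and 126 CPM in VFDM vehicle (0.66, SE 0.18, adjusted p = 0.00871, edgeR). Mybbp1a, a nucleolar regulator of transcription, had 341, 273 and 356 CPM in VFDM COMBO, against 232, 232, 223 and 249.5 CPM in VFDM vehicle (0.47, SE 0.13, adjusted p = 0.00972, edgeR). Gnl3 and Mybbp1a also did not overlap between the groups. Without VFDM COMBO library 4 the adjusted p of Gnl3 was 0.0633. The most abundant gene, Ncl, had 1884, 1945 and 2675 CPM in VFDM COMBO, against 1309, 1485, 1460 and 1737 CPM in VFDM vehicle, which did not overlap and gave 0.53 (SE 0.22) with an adjusted p of 0.0954. Npm1 had 463, 469 and 571 CPM in VFDM COMBO, against 313, 350.2, 343 and 393 CPM in VFDM vehicle, again without overlap, with 0.52 (SE 0.20) and an adjusted p of 0.0802.

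Of the 13 small subunit factors, 4 rose. Heatr1, which takes part in polymerase I transcription and early processing, had 193, 133 and 226 CPM in VFDM COMBO, against 90.2, 113, 107 and 104 CPM in VFDM vehicle (0.83, SE 0.17, adjusted p = 8.75e-04, edgeR). Pno1, which with Nob1 acts in the last cut of small subunit ribosomal RNA, had 37.6, 24.9 and 28.2 CPM in VFDM COMBO, against 13, 16, 15.2 and 16 CPM in VFDM vehicle. Its log2 fold change of 1.01 (SE 0.25, adjusted p = 0.00462, edgeR) was the highest of the 37. Utp20, a large scaffold of early pre-ribosomes, had 179.7, 142 and 186 CPM in VFDM COMBO, against 114, 118, 112 and 133 CPM in VFDM vehicle (0.50, SE 0.15, adjusted p = 0.0167, edgeR). Tsr1, a factor of late small subunit maturation named after its values were seen, had 101, 82.4 and 94.5 CPM in VFDM COMBO, against 56.3, 62.4, 64.5 and 71.7 CPM in VFDM vehicle (0.54, SE 0.16, adjusted p = 0.0209, edgeR). These 4 genes did not overlap between the groups; the adjusted p of Utp20 was 0.0652 without VFDM COMBO library 4 and that of Tsr1 0.0729 without library 2. The late factors Nob1 and Ltv1 had 0.37 (SE 0.22) and 0.35 (SE 0.21), and Wdr43, an early factor, 0.36 (SE 0.17, adjusted p = 0.156). The lowest estimate of the 37 was that of Utp15, 0.05 (SE 0.20). The other 5 small subunit factors (Nop14, Rrp9, Rrp12, Wdr75, Bms1) had 0.18 to 0.83 and did not pass the test.

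Of the 8 large subunit factors, 3 rose. Nop2, a methyltransferase of large subunit ribosomal RNA whose promoter is printed above, had 125, 112 and 97.1 CPM in VFDM COMBO, against 62.2, 52.2, 56.4 and 59.8 CPM in VFDM vehicle (0.95, SE 0.19, adjusted p = 5.57e-04, edgeR). Wdr12 had 137, 126 and 125 CPM in VFDM COMBO, against 70.3, 89.5, 80.7 and 85.8 CPM in VFDM vehicle (0.66, SE 0.18, adjusted p = 0.00888, edgeR). Ebna1bp2 (the mouse counterpart of yeast Ebp2), needed for large subunit processing and also named after its values were seen, had 90.1, 88.7 and 109.8 CPM in VFDM COMBO, against 56.7, 57.8, 57.1 and 65.8 CPM in VFDM vehicle (0.70, SE 0.21, adjusted p = 0.0195, edgeR), and 0.0827 without VFDM COMBO library 4. None of these 3 overlapped between the groups. Pes1 and Bop1, which form the PeBoW complex with Wdr12, had 0.46 (SE 0.18, adjusted p = 0.0784) and 0.41 (SE 0.25, adjusted p = 0.292). The other 3 large subunit factors (Nop16, Rrp1b, Ddx18) had 0.13 to 0.40 and did not pass. Of the 2 helicases, Ddx21 had 464, 416 and 558 CPM in VFDM COMBO, against 232, 249.8, 253 and 281 CPM in VFDM vehicle, and its adjusted p was the lowest of the set (0.92, SE 0.16, adjusted p = 1.23e-04, edgeR). Ddx10, a helicase of small subunit processing, had 0.24 (SE 0.17) and overlapping groups.

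**Figure D2:**
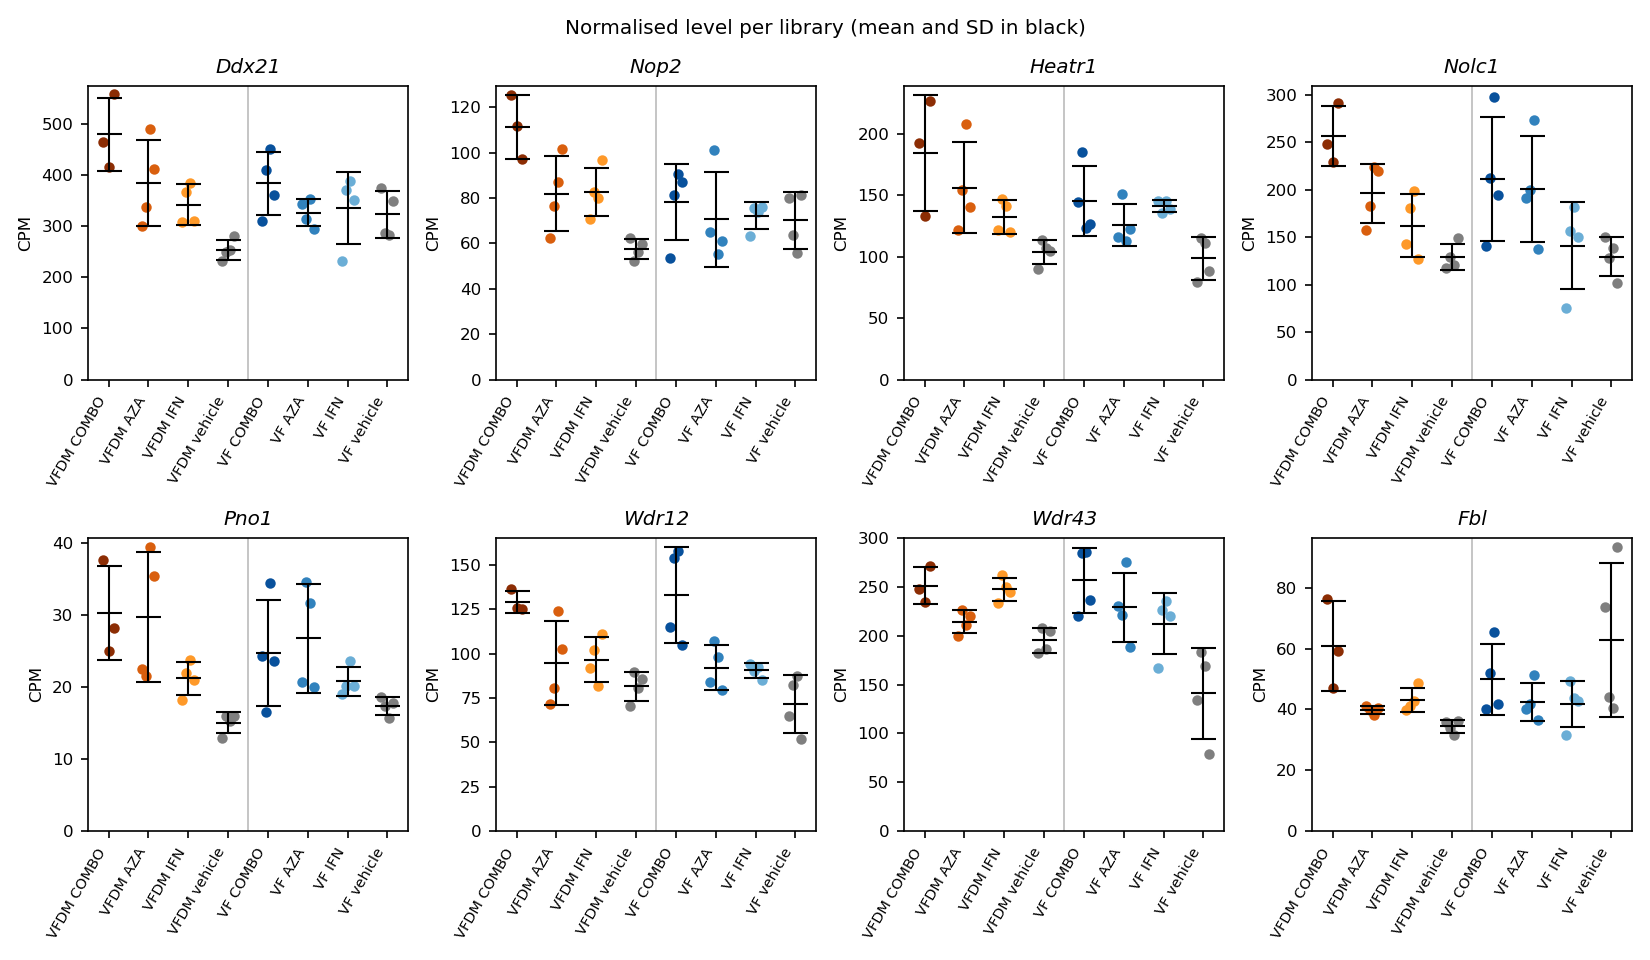
Level of 8 genes in CPM of the TMM-scaled library (y axis from 0) in each library of the 8 groups (x axis, VFDM left and VF right), with the mean and SD in black. Ddx21, Nop2, Heatr1, Nolc1, Pno1, Wdr12 and Fbl were higher in each VFDM COMBO library than in each VFDM vehicle library, and the 4 VF vehicle points of Wdr43 and Fbl are spread widely, with Fbl at 40.3 to 93.4 CPM.

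The calls of 8 genes (Polr1a, Nolc1, Mybbp1a, Heatr1, Pno1, Nop2, Wdr12, Ddx21) held without any single library of the comparison. Other gene lists moved in the same libraries. Of 14 erythroid markers 13 rose in VFDM COMBO, and their summed level was 2388, 21267 and 4465 CPM in libraries 2, 3 and 4, against 489 to 516 CPM in VFDM vehicle, with none of them at 0 in VFDM COMBO. Library 3, with the highest erythroid sum, was the lowest of the 3 for 25 of the 37 ribosome biogenesis genes. Of 12 cell cycle genes 6 rose, among them Mki67 (0.95, SE 0.23, adjusted p = 0.00378, edgeR) and Mcm2 (0.92, SE 0.19, adjusted p = 9.35e-04, edgeR), and the list summed to 3696 to 4731 CPM in VFDM COMBO, against 2135 to 3070 CPM in VFDM vehicle. Of 11 genes that mark or gate LT-HSCs 6 fell and the gated-out Cd48 rose, with sums of 795 to 939 CPM in VFDM COMBO, against 1865 to 2093 CPM in VFDM vehicle. Myeloid markers (3 of 10 rose, 523 to 1140 CPM in VFDM COMBO, against 104 to 176 CPM in VFDM vehicle) and lymphoid markers (5 of 9 tested rose, 29.7 to 71.8 CPM in VFDM COMBO, against 2.59 to 7.75 CPM in VFDM vehicle) moved too. Of 10 megakaryocyte markers 2 rose and 1 fell, with sums of 548 to 699 CPM in VFDM COMBO, against 437 to 686 CPM in VFDM vehicle. Of the 10 lymphoid markers 1 to 6 were at 0 in a VFDM COMBO library, and no myeloid marker was. Their part in the result was not tested. Dnmt3a itself was at 23.0 to 57.0 CPM in VFDM COMBO, against 109 to 119.7 CPM in VFDM vehicle (log2 fold change -1.41, SE 0.24, adjusted p = 5.09e-05, edgeR).

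**Figure D3:**
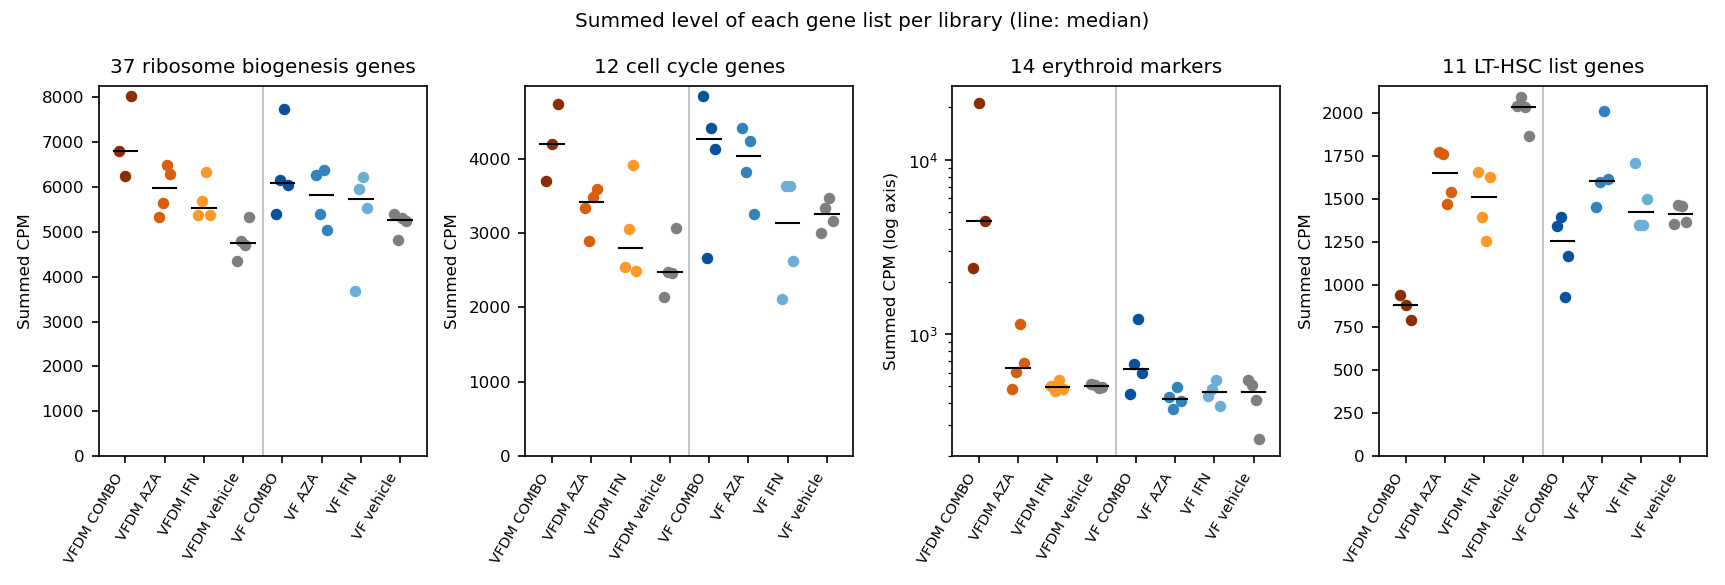
Summed CPM per library (points; line, median) of the 37 ribosome biogenesis genes, 12 cell cycle genes, 14 erythroid markers (log axis) and 11 LT-HSC list genes in the 8 groups. VFDM COMBO has the highest erythroid sums (2388 to 21267 CPM) and low LT-HSC list sums (795 to 939 CPM, against 928 CPM in the lowest VF COMBO library), and its ribosome biogenesis sums are 6255 to 8036 CPM.

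Other genes of the pathway, listed by role and outside the 37, were counted in the same way. Of 45 further large subunit genes 11 rose and none fell in VFDM COMBO against VFDM vehicle (median log2 fold change 0.37), of 41 further small subunit genes 6 rose and none fell (0.24), and of 19 further polymerase I genes 1 rose and none fell (0.21). Ddx24, a large subunit helicase, had 0.76 (SE 0.14, adjusted p = 1.55e-04, edgeR) and Nol9, a kinase of ribosomal RNA processing, 0.77 (SE 0.18, adjusted p = 0.00324, edgeR). Utp14a and Nat10, small subunit factors, had 0.86 (SE 0.20, adjusted p = 0.00206) and 0.63 (SE 0.14, adjusted p = 0.00213). Polr1e, a polymerase I subunit, had 0.86 (SE 0.24, adjusted p = 0.0130). Rrn3 and Ubtf, the initiation factors of polymerase I, had 0.14 (SE 0.19) each and were not called. Mycn had 72.9, 63.3 and 49.4 CPM in VFDM COMBO, against 212 to 289 CPM in VFDM vehicle, and fell (log2 fold change -2.03, SE 0.31, adjusted p = 2.42e-05, edgeR). Myc had 320.5, 272 and 248 CPM in VFDM COMBO, against 177.4 to 230.1 CPM in VFDM vehicle, without overlap, with 0.50 (SE 0.18) and an adjusted p of 0.0587.

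With either drug alone in VFDM cells, most estimates of the set were also above 0. With AZA, 36 of 37 estimates were above 0 (54.5% of the rows of like level and 46.3% of all rows). The median was 0.30 (0.03 over the rows of like level), and 2 genes rose where 0.852% of all rows did. Pno1 had 22.4, 21.5, 39.4 and 35.3 CPM in VFDM AZA, against 13 to 16 CPM in VFDM vehicle (0.98, SE 0.24, adjusted p = 0.0294, edgeR). Ddx21 had 301, 337, 489 and 411 CPM in VFDM AZA, against 232 to 281 CPM in VFDM vehicle (0.60, SE 0.15, adjusted p = 0.0474, edgeR). Neither gene overlapped between the groups, as for 12 of the 37 genes and 5.11% of all rows, but both calls were lost without any of 6 single libraries, VFDM AZA 3 or 4 or any vehicle library. In the same comparison 5 of 14 erythroid markers rose, with sums of 480 to 1143 CPM in VFDM AZA, against 489 to 516 CPM in VFDM vehicle. Of 10 megakaryocyte markers 1 rose (Pf4, 2.52, SE 0.55, adjusted p = 0.0189, edgeR), and the list summed to 968 to 1120 CPM in VFDM AZA, against 437 to 686 CPM in VFDM vehicle, without overlap. The part of these markers in the result was not tested.

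With IFN in VFDM cells none of the 37 genes passed the test in edgeR, where 0.916% of all rows rose. An unadjusted p under 0.05 was found for 8 genes (21.6%), against 6.13% of all rows. DESeq2 also called none of the 37, and limma voom with quality weights called 13 of them and 8.79% of all rows. All 37 estimates were above 0, against 57.4% of the rows of like level and 49.2% of all rows. The median was 0.27 (0.04 over the rows of like level), and 12 genes had every IFN library above every vehicle library, against 5.87% of all rows. Nop2 had 70.8, 82.9, 80.2 and 96.9 CPM in VFDM IFN, against 52.2 to 62.2 CPM in VFDM vehicle (0.52, SE 0.18, adjusted p = 0.303, edgeR). The groups of Nop2 did not overlap. The library labelled VFDM IFN 3 was the highest of its group for 19 of the 37 genes, and none was called without it. In the same libraries 3 of 10 megakaryocyte markers rose, with sums of 992 to 1754 CPM in VFDM IFN, against 437 to 686 CPM in VFDM vehicle. Of 10 myeloid markers 2 rose (S100a8 and S100a9), with sums of 171 to 543 CPM in VFDM IFN, against 104 to 176 CPM in VFDM vehicle. In the LT-HSC list Hlf fell (-1.02, SE 0.21, adjusted p = 0.00768, edgeR) and Ly6a rose, and the part of these markers in the result was not tested. The VFDM drug groups share their vehicle libraries, so these 3 comparisons are not independent.

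COMBO was set directly against each drug alone in VFDM cells, and no gene of the 37 passed the test in edgeR in either comparison, where 1.6% of all rows rose against IFN and 1.94% against AZA. Unadjusted p-values were under 0.05 for 10 genes against IFN (27.0%, against 21.8% of all rows) and for 6 against AZA (16.2%, against 22.5% of all rows), all of them higher in COMBO. DESeq2 called 3 genes against IFN and 1 against AZA, where it called 12.6% and 13.3% of the rows it tested. Limma voom called 6 and 5, where it called 9.07% and 7.82% of all rows. Polr1a came nearest against IFN, with 163, 204 and 156 CPM in VFDM COMBO, against 136, 136, 149.8 and 124 CPM in VFDM IFN (0.35, SE 0.11, adjusted p = 0.0506, edgeR). Fbl came nearest against AZA, with 76.3, 47.0 and 59.3 CPM in VFDM COMBO, against 41.1, 39.7, 38.1 and 40.5 CPM in VFDM AZA (0.61, SE 0.22, adjusted p = 0.0873, edgeR). Neither pair of groups overlapped. The median estimate was 0.28 against IFN and 0.17 against AZA.

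In VF cells 6 of the 37 genes rose with both drugs, where 4.16% of all rows and 9.53% of the rows of like level rose, and none fell. The sums were 5397, 6146, 7743 and 6043 CPM in VF COMBO, against 4816 to 5399 CPM in VF vehicle, so library 1 of VF COMBO lay just inside the vehicle range. The median log2 fold change was 0.22 over the 37 genes, 0.05 over the rows of like level and -0.11 over all rows. Wdr12 had 115, 154, 158 and 105 CPM in VF COMBO, against 64.8, 82.5, 87.6 and 51.8 CPM in VF vehicle (0.89, SE 0.17, adjusted p = 8.79e-04, edgeR). Wdr43 had 220.3, 285, 286 and 237 CPM in VF COMBO, against 135, 183, 169 and 78.7 CPM in VF vehicle (0.86, SE 0.16, adjusted p = 9.42e-04, edgeR). These 2 genes did not overlap between the groups, and their calls held without any single library. The other 4 were Gnl3 (0.59, SE 0.17, adjusted p = 0.0231), Nop58 (0.56, SE 0.16, adjusted p = 0.0237), Heatr1 (0.56, SE 0.16, adjusted p = 0.0304) and Nolc1 (0.71, SE 0.22, adjusted p = 0.0403). All 4 calls were lost without VF vehicle library 4. Over the set, 4 genes had every COMBO library above every vehicle library, against 3.54% of all rows.

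The VF calls depended on libraries. Without VF vehicle libraries 1 and 4, a setting chosen after seeing the data, 1 gene (Wdr43) was called. Without VF vehicle library 4 alone 2 were called, and without VF COMBO library 1 there were 10. Without the libraries that had under 20000 detected rows, which leaves VF COMBO with 1 library whose spread is assumed to be like that of the other groups, none was called. Beside these results, 4 of 14 erythroid markers rose in VF COMBO (451 to 1226 CPM summed, against 248 to 541 CPM in VF vehicle) and 4 of 9 lymphoid markers rose (20.3 to 150.1 CPM in VF COMBO, against 4.48 to 13.7 CPM in VF vehicle), while no cell cycle gene was called. The lymphoid sum of 150.1 CPM was that of VF COMBO library 1, and libraries 2, 3 and 4 had 20.3, 31.2 and 25.3 CPM. Of the 10 lymphoid markers 1 to 8 were at 0 in a VF COMBO library. Of 10 megakaryocyte markers 2 rose (Plek and Pf4), with sums of 360 to 1629 CPM in VF COMBO, against 515 to 688 CPM in VF vehicle. In the LT-HSC list Hlf fell (-1.06, SE 0.22, adjusted p = 0.00205, edgeR) and Cd48 and Ly6a rose. VF COMBO library 3, with the highest erythroid sum of its group, was the highest for 27 of the 37 genes. The part of these markers was not tested. Of the other pathway genes Rrn3 rose (54.4 to 73.9 CPM in VF COMBO, against 25.3 to 49.4 CPM in VF vehicle, 0.71, SE 0.18, adjusted p = 0.0114, edgeR). Its levels were 31.4 and 25.3 CPM in VF vehicle libraries 1 and 4, and 47.8 and 49.4 CPM in libraries 2 and 3. The Rrn3 call was not repeated without single libraries. Further polymerase I genes counted 2 rises and 1 fall of 19, small subunit genes 4 and 2 of 41, and large subunit genes 5 and 1 of 45.

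In VF cells 1 gene rose with IFN alone and 1 with AZA alone, where 1.27% and 0.293% of all rows rose. In both it was Wdr43, with 0.59 (SE 0.16, adjusted p = 0.0435, edgeR) for IFN and 0.70 (SE 0.16, adjusted p = 0.0230, edgeR) for AZA. Its levels were 167 to 236 CPM in VF IFN and 189 to 275 CPM in VF AZA, against 78.7 to 183 CPM in VF vehicle, overlapping for IFN and not for AZA. Neither call held without VF vehicle library 1 or without library 4, nor without some of the treated libraries (VF IFN 2, 3 or 4 and VF AZA 2 or 3). The medians of the 37 estimates were 0.05 and 0.11. With IFN 2 of 10 megakaryocyte markers rose (1412 to 1829 CPM summed in VF IFN, against 515 to 688 CPM in VF vehicle). Of 14 erythroid markers 1 rose with IFN (Car1, 5.79, SE 1.41, adjusted p = 0.0245, edgeR). In the LT-HSC list Ly6a rose with IFN (1.85, SE 0.27, adjusted p = 2.39e-05, edgeR). Slamf1 of that list rose with AZA (0.84, SE 0.21, adjusted p = 0.0379, edgeR). The part of these markers in the result was not tested. COMBO against IFN and against AZA in VF cells called none of the 37 (0.00451% and 1.06% of all rows rose), with 5 genes (13.5%, against 11.2% of all rows) and 2 genes (5.41%, against 16.8%) at an unadjusted p under 0.05. There DESeq2 called 0 genes against IFN and 2 against AZA, where it called 1.21% and 5.97% of the rows it tested.

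The difference between the genotypes in the response to both drugs was tested as an interaction term. It passed for 1 of the 37 genes, Fbl, with a difference of 1.16 on the log2 scale (95% interval 0.56 to 1.75, adjusted p = 0.0256, edgeR), where 1.25% of all rows had a positive difference that passed. Its log2 fold change was 0.82 in VFDM and -0.33 in VF. Fbl had 40.2, 52.1, 65.4 and 41.9 CPM in VF COMBO, against 73.8, 44.0, 40.3 and 93.4 CPM in VF vehicle, where libraries 1 and 4 were the high ones. Without those 2 libraries the difference was 0.59 and no longer passed, nor did it pass without VF COMBO library 1, VFDM COMBO library 2 or VFDM vehicle library 2 or 3 alone. Nop2 and Ddx21 had differences of 0.79 (interval 0.28 to 1.31, adjusted p = 0.0826) and 0.67 (interval 0.23 to 1.11, adjusted p = 0.0846). Wdr43 had a difference of -0.50 (interval -0.96 to -0.03, adjusted p = 0.240). The intervals of Heatr1 (-0.19 to 0.74) and Nolc1 (-0.34 to 0.91) included 0. For the other 36 genes the difference between genotypes did not pass the test. At an unadjusted p under 0.05 (edgeR) there were 7 genes (18.9%), against 19.8% of all rows. DESeq2 called 1 of the 37 genes and 9.05% of the rows it tested, and limma voom called 0 genes and 1.18% of all rows. Of the 6 VF calls 5 were also among the 16 VFDM calls. The same overlap over all rows was not counted, so it cannot be said whether this is particular to the set.

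**Figure D4:**
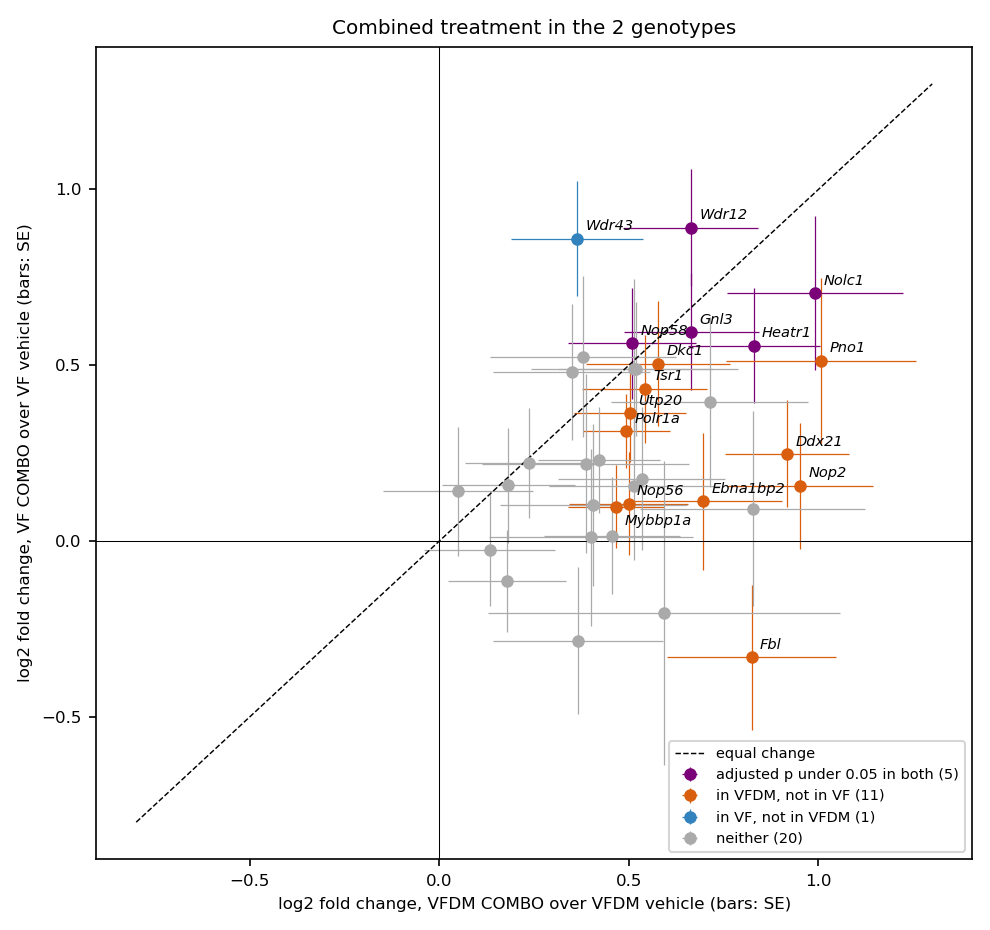
Log2 fold change of the 37 genes with both drugs over vehicle in VFDM (x axis) and in VF (y axis), with SE bars, the line of equal change dashed, and colour for the call in each genotype. 5 genes were called in both, 11 in VFDM and not in VF, and 1 (Wdr43) in VF and not in VFDM; Fbl lies at 0.82 and -0.33.

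The IFN and AZA interaction terms called none of the 37 genes in edgeR, where 0% and 0.582% of all rows passed, and none was called by DESeq2 or limma voom. An unadjusted p under 0.05 was found for 3 genes in the IFN term (8.11%, against 5.18% of all rows) and 7 in the AZA term (18.9%, against 10.4%). Under vehicle, VFDM and VF cells differed for 1 gene. Fbl was lower in VFDM vehicle (36.0, 34.0, 31.6 and 36.1 CPM) than in VF vehicle (73.8, 44.0, 40.3 and 93.4 CPM), without overlap (log2 fold change -0.87, SE 0.21, adjusted p = 0.0318, edgeR), where 0.785% of all rows were lower. Without VF vehicle libraries 1 and 4 the estimate was -0.26 and did not pass, nor did it pass without any single VFDM vehicle library. For 5 of the 37 genes every VFDM vehicle library was below every VF vehicle library, against 6.87% of all rows. Averaged over the 4 treatments, no gene of the 37 passed the genotype test, in which 2.37% of all rows did, and 5 (13.5%) had an unadjusted p under 0.05, against 14.7% of all rows. The nearest was Gnl3 (0.27, SE 0.08, adjusted p = 0.0885, edgeR). DESeq2 called 1 gene of the 37 and 4.02% of the rows it tested.

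The small nucleolar RNAs within the 7 host genes were counted as rows of their own. In all they summed to 22.6 to 35.0 CPM in VFDM COMBO and 17.6 to 22.5 CPM in VFDM vehicle. Of the 20 that could be tested none was called in that comparison, where 16% of all rows were, with a median log2 fold change of 0.51. In VF COMBO against VF vehicle 1 of the 20 fell, where 4.13% of all rows did, and none rose.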

How the data were processed

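RNA of sorted LT-HSCs was sequenced in 31 libraries of 8 groups, prepared with a SMART-Seq Stranded kit per the labels. The authors deposited raw gene counts for 55492 rows. Per the submitters' processing notes the tools were STAR 2.7.10a, featureCounts, FastQC 0.11.5 and R 4.3.0, with build mm10. How multi-mapping reads and strand were handled, and with which annotation, is not given in the sources used here. Overlapping and near-identical genes are therefore uncertain. Symbols, positions and exon lengths came from GENCODE vM21.

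Counts were fitted in R 4.3.3 with edgeR 4.0.16 (TMM on all libraries, filterByExpr with a minimum of 10 reads, robust quasi-likelihood, 1 mean per group), leaving 22172 rows, and 15 comparisons were tested two-sided. An adjusted p (Benjamini-Hochberg over all rows tested) under 0.05 is a call. The SE is the size of the log2 fold change over the square root of F, and 95% intervals follow from it. CPM are per TMM-scaled library. The procedure was also run on simulated counts that lacked the library differences described above, and no result of that run is used here. DESeq2 1.42.0 and limma 3.58.1 (voom with quality weights), DESeq2-type size factors, no filter, protein-coding rows, the compared groups alone, a replicate block, and left-out libraries served as alternatives. The 37 genes, the other lists and the rule for named genes (called members with the smallest p, and fixed representatives of each role) were chosen with earlier results of these data known. No replicate pair agreed within sampling noise (smallest chi-square per degree of freedom 19.6).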

Additional observations from a re-analysis of the deposited data

Results flagged for a closer look

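In groups of 4 libraries the highest or lowest library was set against the other 3 for each of the 37 genes, which gave 259 tests. In 20 of them a library stood apart by Dixon's criterion, and these came from 10 different libraries. Chance picks out about 1 in 20 groups. The 259 tests share libraries and are not independent, and no share over all rows was counted for comparison. Whether 20 is more than chance gives was therefore not tested, and the genes below are listed as a description only. VF IFN library 1 accounted for 7 of the 20. It was low for Nop14 (65.4 CPM, others 105 to 109), Nob1 (29.0, others 36.4 to 37.2), Tsr1 (56.2, others 77.9 to 79.8), Ltv1 (35.8, others 50.6 to 53.6), Nop2 (63.4, others 74.1 to 76.3) and Ddx10 (69.7, others 118 to 124), and high for Polr1b (70.6, others 61.4 to 62.3).

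VFDM AZA library 3 was high for Dkc1 (189 CPM, others 124 to 128) and Npm1 (486, others 377 to 387). The library labelled VFDM IFN 3, which also had the highest Dnmt3a of its group, was high for Ncl (2050 CPM) and Npm1 (455 CPM). VFDM vehicle library 4 was high for Rrp12 (43.7 CPM), Ebna1bp2 (65.8 CPM) and Ddx10 (114 CPM). Single genes stood apart in VF vehicle library 1 (Nop56, 181 CPM), VF vehicle library 2 (Nhp2, 56.4 CPM), VF COMBO library 1 (Utp15, 54.9 CPM), VF COMBO library 3 (Bms1, 237 CPM), VF AZA library 2 (Utp20, 159 CPM) and VF AZA library 4 (Ebna1bp2, low at 49.9 CPM).

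The response of Fbl to both drugs differed between VFDM and VF by 1.16 on the log2 scale, by the interaction term.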

How the results depend on the processing

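The count of rises in VFDM COMBO was 16 to 24 under every alternative run except the removal of libraries with under 20000 detected rows, where it was 27, and leave-one-out, which gave 10 to 18. The other counts were as follows. VF IFN gave 2 (DESeq2-type size factors), 3 (DESeq2), 6 (voom), 2 (protein-coding rows), 3 (no libraries under 20000 rows), 0 (compared groups alone), 0 (no VF vehicle libraries 1 and 4, chosen after seeing the data) and 0 to 5 (leave-one-out). VF AZA gave 0 under voom, protein-coding rows, no libraries under 20000 rows, compared groups alone and no VF vehicle 1 and 4, and 0 to 6 in leave-one-out. VF COMBO gave 10 (DESeq2), 1 (voom), 0 (no libraries under 20000 rows), 0 (alone), 1 (no VF vehicle 1 and 4) and 2 to 10 in leave-one-out. VFDM IFN gave 13 (voom), 1 (no libraries under 20000 rows), 7 (alone) and 0 in each leave-one-out. VFDM AZA gave 1 (no filter), 4 (DESeq2), 0 (no libraries under 20000 rows) and 0 to 4 in leave-one-out.

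Against the single drugs, VFDM COMBO gave against IFN 2 (size factors), 3 (DESeq2), 6 (voom), 5 (protein-coding), 9 (no libraries under 20000 rows), 5 (alone) and 0 to 2 in leave-one-out, and against AZA 1 (DESeq2), 5 (voom), 1 (protein-coding), 6 (no libraries under 20000 rows) and 0 to 1. VF COMBO gave against IFN 0 to 1 in leave-one-out, and against AZA 2 (DESeq2) and 0 to 2. The genotype contrast under vehicle gave 0 (no filter, alone, no VF vehicle 1 and 4), 2 (voom, and no libraries under 20000 rows) and 0 to 1. Averaged over treatments it gave 1 (DESeq2, protein-coding) and 0 to 1. The COMBO interaction gave 0 (voom, alone, no VF vehicle 1 and 4) and 0 to 2. Under vehicle, voom called 4.05% of all rows in the genotype contrast. The cause of the shifts in these counts was not tested.

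Of 389 gene-level and median values recomputed, 327 were counted as unchanged. For a gene this meant the same sign and an adjusted p still under 0.05. For a median it meant a shift smaller than the SD of the set's mean level among libraries of a group. Of the rest, 60 were genes that lost the call, 2 were medians that moved further and 0 were genes that turned sign. The medians were not judged by a test or by sign. Under all 15 settings of VFDM COMBO against vehicle 35 of the 37 estimates stayed above 0, and the median was 0.47 to 0.64. The alternative scalings moved the median of all rows by up to 0.12 (voom). Same-numbered libraries did not deviate together over all rows (105 pairs, median r -0.000777, highest 0.173, 6 over 0.1, 10 of 31 libraries closest to their own number). No pairing by number was seen, but a weak one could be missed by this measure. With a replicate block 0 genes were called in the genotype contrast under vehicle, and the count in VF COMBO was 7 and in VFDM COMBO 16. Intervals cover the spread between 3 or 4 libraries.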
